A study of Homo sapiens with 13 samples.

Results

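The genes described here are the 51 clustered replication histone genes (gene names HIST1H to HIST4H) that had at least 1 read, out of 14575 genes with reads, chosen by name alone. They comprise 3 H1, 14 H2A, 15 H2B, 9 H3 and 10 H4 genes, with 43 in the HIST1 clusters on chromosome 6, 5 in HIST2 and 2 in HIST3 on chromosome 1, and 1 in HIST4. Poly(A) RNA was mapped by 3’ READS, a method that sequences the junction between an mRNA and its poly(A) tail, in HEK293 Flp-in T-REx cells, a human embryonic kidney line with a single integration site for a transgene. By their titles, all 9 libraries came from cells with an Avitag-tagged Rpb1, the largest subunit of Pol II. The pcDNA5 plasmid that these cells carried encodes an α-amanitin resistant Rpb1. These cells were given 2 µg/ml doxycycline to induce it, for 24 hr by the labels. In the study's methods, doxycycline was given alone for less than 24 hr and was then continued together with α-amanitin. The α-amanitin was given at 2.5 µg/ml for 42 hr to inhibit the endogenous Rpb1. The transgene was wild-type in 5 libraries and R749H, a substitution that makes Pol II elongate slowly, in 4. Each group is 1 cell line with an integrated transgene, so line and mutation cannot be told apart. The study calls the libraries of a group biological replicates, without saying how the cultures were separated, and p-values measure the spread between these libraries.

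Most mRNAs end in a poly(A) tail that is added after cleavage downstream of an AATAAA signal. Replication histone mRNAs are the exception. They are made in S phase, lack introns, and are cleaved a few nt after a conserved stem-loop that is bound by SLBP, with the U7 snRNP guiding the cut, and receive no tail. Tailed histone transcripts arise where the Pol II transcript is instead cleaved at an ordinary poly(A) site, usually downstream of the stem-loop, and they are known from differentiated or arrested cells and from cells that lack processing factors. A poly(A) method therefore reads a minor part of histone mRNA, and the values below say nothing about the untailed majority.

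The stem-loop and the 3’ ends are shown first, because the position of an end relative to the stem-loop separates the kinds of transcript. A search of the 100 nt after each stop codon in GRCh37 found the 16-nt consensus stem-loop, named here by name alone and on the sense strand, in 50 of 51 members (98.0%; HIST2H2BF had no match) and in 1 of 14524 other genes (0.00689%). The other gene was H2AFX, a histone gene known to make both stem-loop and poly(A) mRNA. The stem-loop began 23 to 63 nt after the stop codon (median 35.5 nt), and 29 members shared the same 16 letters. The stem-loops of the most abundant member and of 2 members with other letters are shown, 5’ to 3’, with the stem-loop in capitals. They lie at chr1:228645061-228645090 on the minus strand, chr6:27792232-27792261 on the plus strand and chr1:149858936-149858965 on the plus strand.
HIST3H2A: ataaaGGCTCTTTTCAGAGCCacctactat
HIST1H4J: taaaaGGCCCTTTTCAGGGCCaccctactt
HIST2H2AC: ccaaaGGCTCTTTTTAGAGCCacccaagtt

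The 30 nt that lead up to the most used 3’ end of 8 members are given next, since these ends hold most of the reads. The last base of each line is the last base that was mapped. Leading Ts of a read, which stand for As at the 3’ end, were removed before mapping. Encoded As that follow the last base therefore cannot be told from the tail, and positions of ends are those of the mapped base. Capitals mark AATAAA or ATTAAA, except in HIST1H4J, where they mark the stem-loop.
HIST3H2A, 444 nt after the stop codon, chr1:228644682-228644711, minus strand: tatctgatATTAAAagtatttatgatctct
HIST1H1C, 80 nt, chr6:26055935-26055964, minus strand: atctcAATAAAagagctggataatttcttt
HIST1H3H, 912 nt, chr6:27779145-27779174, plus strand: tgttctaaaatacaggctcatgagaggagg
HIST1H4J, 51 nt, chr6:27792236-27792265, plus strand: aGGCCCTTTTCAGGGCCaccctactttctc
HIST1H3B, 2797 nt, chr6:26029081-26029110, minus strand: aggtagAATAAAcagccttgttgctcacac
HIST2H2BE, 1798 nt, chr1:149856012-149856041, minus strand: attgttattAATAAAgttaccaattaattt
HIST1H2AL, 3417 nt, chr6:27836913-27836942, plus strand: ctttAATAAAaatacaaaacattttgctgg
HIST2H2AC, 8 nt, chr1:149858893-149858922, plus strand: ccacaaagccaaaagcaAATAAAtgcagac
In 6 of these lines a poly(A) signal precedes the end. HIST1H3H had neither hexamer in the 40 nt before its most used end, and the AATAAA of HIST1H4J begins 36 nt before the end, upstream of the stem-loop. The AATAAA of HIST2H2AC begins 13 nt before the end, against 21 to 26 nt in HIST1H1C, HIST1H3B, HIST2H2BE and HIST1H2AL. At this HIST2H2AC end, 7 of the next 10 genomic bases are A. Among the 22 members with at least 20 reads, 14 (63.6%) had AATAAA within 40 nt before the most used end, against 65.1% of all genes, and 17 of all 51 members (33.3%) did. AATAAA or ATTAAA preceded the end in 20 of the 51 members (39.2%) and 15 of the 22 (68.2%), and in 81.2% of all genes, which were not filtered on reads. In the annotation (GENCODE lifted to GRCh37), the most used end of these 22 members lay in an annotated UTR in 9, where no gene is annotated on that strand in 9, and in an intron of an annotated gene in 4. It lay beyond 100 nt in 15 and beyond 1000 nt in 9, and the authors assigned each end to a stop codon up to 5 kb upstream, so whether the far ends belong to transcripts that start at the histone gene was not tested.

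The 4 R749H libraries held 3863468 to 6475987 reads assigned to genes, and the 5 wild-type libraries 2479851 to 10135014. Levels are given as RPM, the reads of a gene for every 1000000 reads assigned to genes. A read marks 1 poly(A) end whatever the length of the mRNA, so levels were not scaled by length. Possible duplicates and reads with several matches, described below, limit comparisons of levels between genes. R749H replicate 3 stood apart, with 41033 distinct 3’ ends and a single read at 6.60% of them, against 30.05% to 36.2% in the other 8 libraries. POLR2A, the gene for Rpb1, held 322 ± 81.5 RPM (SD, n = 4) in R749H and 92.6 ± 26.2 RPM (SD, n = 5) in wild-type cells (limma, adjusted p = 6.9e-06), and reads of the plasmid and the chromosomal gene were not separated. KRT18 and KRT8, keratins of HEK293 cells, were read in every library, at 364 to 684 and 49.1 to 81.6 RPM, the neurofilament gene NEFM was at 0 to 0.403 RPM and NEFL was listed at 0. Of the markers of other lineages, PTPRC was listed at 0, CD3E, ALB and COL1A1 stayed at or under 0.754 RPM, EPCAM lay at 14.97 to 39.9 RPM, and HBA1 was at 88.5 to 104 RPM in R749H and 48.6 to 75.1 RPM in wild-type cells. Of the 4 HEK293 markers tested 0 rose and 1 fell (VIM; limma, adjusted p under 0.05), and of the 2 tested markers of other lineages 1 rose (HBA1) and 0 fell.

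The 51 histone genes held 10339 reads in all 9 libraries together, and made up a larger share of all reads in every R749H than in every wild-type library. Their summed level was 173, 153, 132, 151 and 90.5 RPM in wild-type replicates 1 to 5 and 270.2, 345, 344 and 359 RPM in R749H replicates 1 to 4. The group means were 140 ± 31.1 RPM (SD, n = 5) and 329 ± 40.1 RPM (SD, n = 4), a ratio of 2.36, and the lowest R749H library lay above the highest wild-type library. A sum over members is given without a test. In bulk RNA, a different share of S phase or arrested cells and a different amount of tailed histone RNA per cell cannot be told apart. With R749H replicate 3 left out, the ratio was 2.32.

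The reads were concentrated in few genes. HIST3H2A, which encodes an H2A core histone, and HIST1H1C, which encodes the linker histone H1.2, held 79.8% of them, and 4 genes held 88.0%. At the other end, 18 members had fewer than 10 reads in the 9 libraries together. Without HIST3H2A the sum was 50.4 ± 8.71 RPM (SD, n = 5) in wild-type and 126 ± 28.6 RPM (SD, n = 4) in R749H cells, a ratio of 2.49. Without both genes it was 28.7 ± 4.47 and 64.3 ± 15.9 RPM, a ratio of 2.24, and the libraries of the 2 groups still did not overlap. By family, the ratio of summed levels was 2.83 for H1, 2.29 for H2A, 2.64 for H2B, 2.15 for H3 and 1.94 for H4, and in each family every R749H library lay above every wild-type library. HIST1H1C held 1785 of 1797 H1 reads, HIST3H2A 6461 of 6832 H2A reads, HIST1H3H 579 of 853 H3 reads and HIST1H4J 275 of 495 H4 reads. These sums thus mostly follow single genes. In H2B, the gene with the most reads, HIST2H2BE, held 101 of 362. By cluster the ratio was 2.50 for HIST1, 2.50 for HIST2, 2.28 for HIST3 and 0.818 for HIST4 (1 gene, 11 reads), and the libraries overlapped for HIST2 and HIST4.

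Of the 51 members, 39 had a higher and 12 a lower mean level in R749H cells. In 8 members every R749H library exceeded every wild-type library, and in 0 the reverse held. Over all 14575 genes with reads the same separation was found upward in 2.95% and downward in 16.0%. In the 8 members tested next the count was 7 (3.91% of all genes tested), a number that the filter on low counts partly fixes. The 9 libraries all held reads of 10 members, whereas 7 members were read in R749H libraries and not in wild-type, and 2 in wild-type and not in R749H. These numbers rest on few reads per gene, and 43 members were too low to be tested. Some replication histone genes are near-identical copies, and how reads with several matches were placed is not given in the sources used here, so the low counts of single genes are uncertain.

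**Figure D1:**
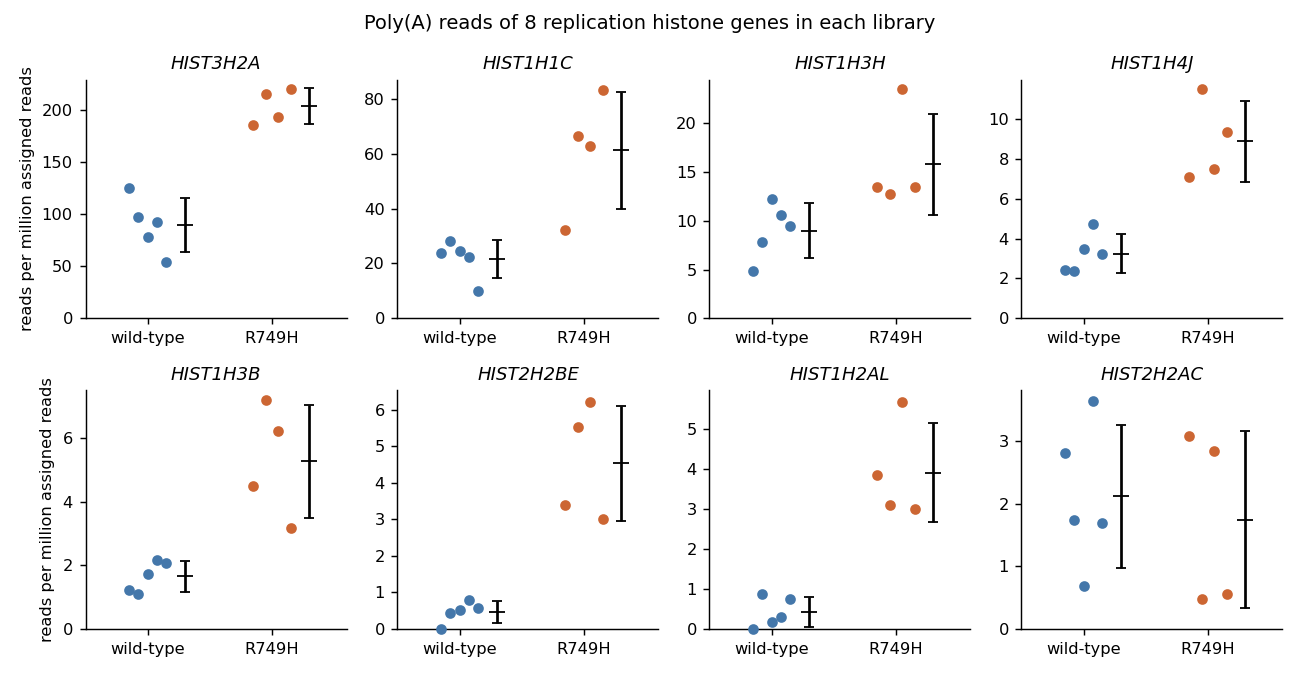
Level of the 8 tested replication histone genes in each library, in RPM (linear axes that include 0). Points are libraries (5 wild-type, 4 R749H), and bars show the mean ± SD. In 7 genes the R749H points lie above every wild-type point, and those of HIST2H2AC overlap.

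The level of each gene was compared with limma on log2 RPM with TMM factors, over 9494 genes that passed a filter on low counts (filterByExpr), and p-values were adjusted over all of them. The filter needed at least 1.89 RPM in 4 libraries. HIST3H2A, HIST1H1C, HIST1H3H and HIST1H4J reached it in all 9 libraries. HIST2H2BE and HIST1H2AL reached it in the 4 R749H libraries and in 0 wild-type libraries, and HIST1H3B in 4 and 2, so these 3 entered through the group where they are high, and their direction was largely fixed by the filter. HIST2H2AC reached it in 2 libraries of each group. At an adjusted p under 0.05, the 4 members read above the minimum in every library all rose in R749H cells, as did the 3 that entered through R749H, and 0 fell. Of all genes tested, 11.3% rose and 13.8% fell, and since the filter chose the members tested, nothing is read from their number against this share. The median log2 fold change of all genes tested was -0.06 on this scale, and -0.39 when the authors' scaling of each library to a fixed total was used alone, where 447 genes rose and 2735 fell in place of 1071 and 1309. The same 7 members rose on that scale.

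HIST3H2A was the most abundant member by a wide margin. It held 125, 97.5, 78.2, 92.5 and 54.1 RPM in wild-type replicates 1 to 5 and 185, 216, 194 and 220.5 RPM in R749H replicates 1 to 4. All R749H libraries were higher than all wild-type libraries, which differed among themselves by more than the R749H libraries did. The log2 fold change was 1.55 (SE 0.20, 95% interval 1.13 to 1.97, adjusted p = 4.4e-05). Of its 6461 reads, 6255 (96.8%) ended at 444 nt, inside the annotated UTR of the gene (current symbol H2AC25), 388 nt beyond the end of the stem-loop. A single mapped position thus held nearly all of its poly(A) ends, out of 25 distinct ends in all.

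HIST1H1C (H1-2) was second. Its level was 23.8, 28.1, 24.4, 22.5 and 9.80 RPM in wild-type and 32.3, 66.6, 62.9 and 83.5 RPM in R749H replicates. R749H replicate 1 lay close to the highest wild-type library, and the other 3 were far above it. The log2 fold change was 1.80 (SE 0.30, 95% interval 1.16 to 2.43, adjusted p = 0.00042 by limma). In contrast to HIST3H2A, 98.8% of its 1785 reads ended within 100 nt of the stop codon, at several bases around 80 nt, 37 nt past the stem-loop and behind the AATAAA shown above. No gene is annotated at that end on this strand.

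The 2 H3 genes with tested reads used distal ends. HIST1H3H (H3C10) held 4.84, 7.84, 12.3, 10.6 and 9.43 RPM in wild-type and 13.4, 12.7, 23.6 and 13.5 RPM in R749H replicates. The groups were separated by a narrow gap, between wild-type replicate 3 and R749H replicate 2. Its log2 fold change of 1.11 (SE 0.29, 95% interval 0.50 to 1.72, adjusted p = 0.010 by limma) was the lowest of the 7, and was 0.97 without R749H replicate 3 (adjusted p = 0.027). HIST1H3B (H3C2) held 1.21, 1.09, 1.73, 2.17 and 2.07 RPM in wild-type and 4.48, 7.19, 6.21 and 3.18 RPM in R749H replicates. The lowest R749H library was above the highest wild-type library, and the log2 fold change was 1.73 (SE 0.37, 95% interval 0.96 to 2.49, adjusted p = 0.0024 by limma), with the filter passed through R749H as said above. HIST1H3H ended mainly at 909 to 912 nt, with further ends at 814 and 385 nt, and HIST1H3B at 2797 nt, where no gene is annotated on that strand.

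HIST1H4J (H4C11), an H4 gene, was the second member whose reads lay mainly near the stop codon. It held 2.42, 2.39, 3.46, 4.74 and 3.20 RPM in wild-type and 7.10, 11.5, 7.51 and 9.36 RPM in R749H replicates, and the groups were clearly apart. The log2 fold change was 1.66 (SE 0.31, 95% interval 1.01 to 2.31, adjusted p = 0.00091 by limma). Of its 275 reads, 171 ended at 51 nt, 67 at 56 nt and 24 at 45 nt, which is 7 to 18 nt past the stem-loop, closer to it than in the other tested genes that rose.

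The largest fold changes among the 8 belonged to 2 genes that were nearly unread in wild-type cells. HIST2H2BE (H2BC21), an H2B gene, had 0, 2, 3, 8 and 3 reads in wild-type replicates 1 to 5 and 22, 23, 24 and 16 reads in R749H replicates 1 to 4, or 0.462 ± 0.290 RPM (SD, n = 5) and 4.53 ± 1.57 RPM (SD, n = 4). HIST1H2AL (H2AC16) had 0, 4, 1, 3 and 4 reads in wild-type and 25, 13, 22 and 16 reads in R749H replicates, or 0.419 ± 0.377 and 3.92 ± 1.25 RPM. In both genes the lowest R749H library exceeded every wild-type library. The log2 fold changes, which the prior count of 2 shrinks in such low genes, were 2.80 (SE 0.46, adjusted p = 0.00036) and 2.73 (SE 0.49, adjusted p = 0.00065) by limma. Both genes were in the fit through their R749H reads alone, so these values describe the members and are no independent test. HIST2H2BE reads ended at 1798 nt in its annotated UTR in 90 of 101 cases. HIST1H2AL reads were spread over 25 ends. At 3417 nt lay 9 of 12 wild-type and 22 of 76 R749H reads, whereas the ends at 293 to 329 nt held 0 wild-type and 24 R749H reads (in 4 of 4 libraries), and those at 1992 to 2002 nt 1 and 16. These counts were not tested, and 12 wild-type reads leave the wild-type shares imprecise.

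HIST2H2AC (H2AC20) was the tested member that did not pass. It held 2.82, 1.74, 0.692, 3.65 and 1.70 RPM in wild-type and 3.09, 0.479, 2.85 and 0.561 RPM in R749H replicates, which overlapped fully. Its log2 fold change was -0.15, with a 95% interval of -1.26 to 0.96 (adjusted p = 0.86 by limma), which leaves out the log2 fold changes of the other 7, and it turned to 0.016 with edgeR and 0.026 with DESeq2. Its main ends, at 8 and 12 nt, lay before the stem-loop, unlike those of the 7 that rose.

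Among the members below the filter, HIST1H3J (chosen after its values were seen, as the eighth member whose groups did not overlap) had 0, 1, 0, 2 and 0 reads in wild-type and 6, 11, 20 and 3 in R749H replicates, most of them at 2263 or 2267 nt behind an AATAAA. When every gene with a read was fitted without the filter, 12 of the 51 members rose and 0 fell, against 6.79% of 14575 genes that rose. HIST1H3J, HIST1H4I, HIST1H3E, HIST1H2AM and HIST1H2AE were those added to the 7. In R749H replicates 1 to 4 HIST1H4I had 0, 5, 10 and 2 reads, and HIST1H2AM 3, 5, 11 and 4. HIST1H3E had 7, 3, 5 and 8 reads there, and HIST1H2AE 6, 9, 19 and 19. In RPM, R749H replicate 3, the library that stood apart, was the highest for each of these genes but HIST1H3E. The fit without the filter was not repeated without that library. The 29 members with fewer than 20 reads held 211 reads together, and 22 of them had a higher and 7 a lower mean in R749H cells.

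**Figure D2:**
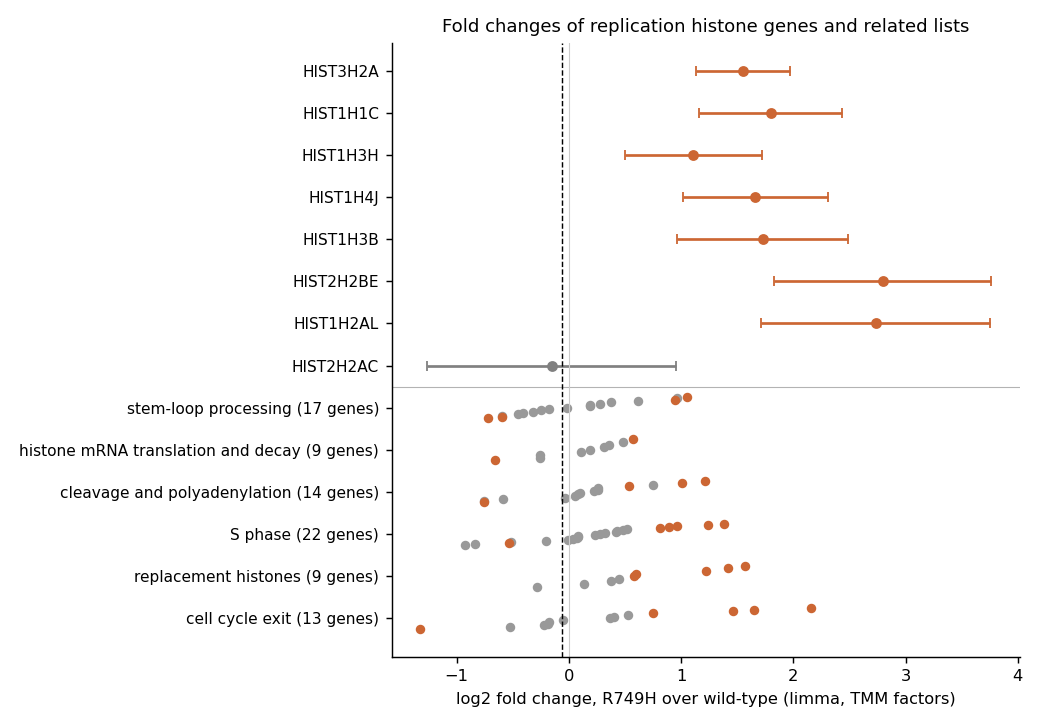
Log2 fold change (R749H over wild-type, limma with TMM factors) of the 8 tested replication histone genes, with 95% intervals, and of the tested genes of 6 related lists, 1 point per gene. Orange marks an adjusted p under 0.05, and the dashed line is the median of all 9494 genes, -0.06. The 7 histone genes that rose lie at 1.11 to 2.80.

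To see at which positions the reads increased, the reads of each gene were split into those that ended within 100 nt of the stop codon and those beyond, and all 9900 features that passed the filter were fitted together. The filter left 7 member features, and 4 of them reached its minimum in all 9 libraries (HIST1H1C and HIST1H4J near, HIST3H2A and HIST1H3H beyond), while the distal reads of HIST1H3B, HIST2H2BE and HIST1H2AL entered through R749H, where they are high. All 4 and all 3 rose (limma, adjusted p under 0.05). Of all features 11.2% rose and 13.3% fell, and nothing is read from the members' number against this. The near reads of HIST1H1C rose by 1.81 on the log2 scale (SE 0.31, adjusted p = 0.00045) and those of HIST1H4J by 1.65 (SE 0.31, adjusted p = 0.0010). The distal reads rose in HIST3H2A (1.55), HIST1H3H (1.11), HIST1H3B (1.95), HIST2H2BE (2.86) and HIST1H2AL (2.80), with adjusted p from 5.2e-05 to 0.011 by limma. So the increase was seen both at ends within 100 nt of the stop codon and at ends beyond, each in different genes. Each gene had only 1 of its windows in the fit.

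**Figure D3:**
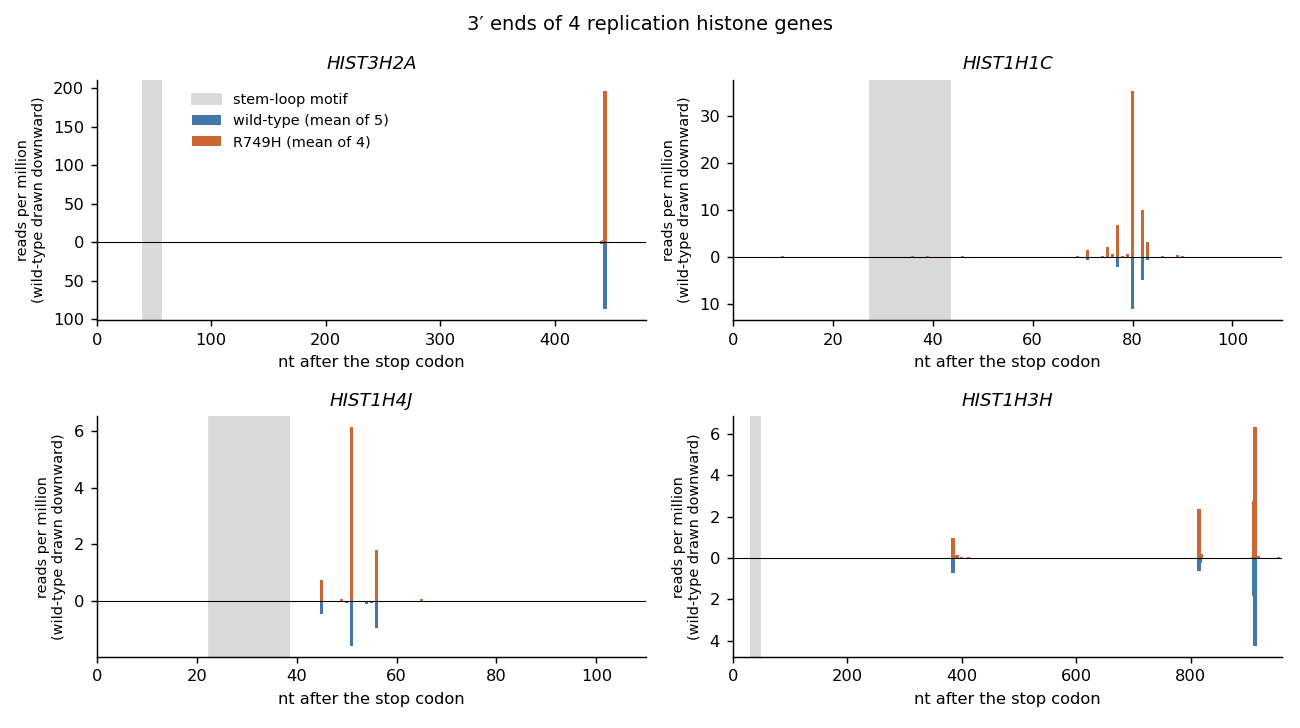
Mean level (RPM) at each 3’ end of 4 replication histone genes by distance from the stop codon in nt, with R749H (mean of 4 libraries) drawn upward, wild-type (mean of 5) drawn downward and the stem-loop shaded. Bars are drawn wider than 1 nt. Ends in both cell lines lie at 444 nt in HIST3H2A, around 80 nt in HIST1H1C, at 45 to 56 nt in HIST1H4J and at 385 to 912 nt in HIST1H3H.

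The position of ends within a gene was compared in the 4 members with the most reads. The share of HIST3H2A reads at 444 nt was 96.7% ± 1.04 (SD, n = 5) in wild-type and 96.7% ± 0.70 (SD, n = 4) in R749H cells. The mean position of HIST1H1C ends between 65 and 100 nt was 79.8 ± 0.432 nt in wild-type and 79.8 ± 0.394 nt in R749H cells, and that of HIST1H4J ends between 30 and 75 nt was 51.7 ± 1.09 and 51.8 ± 0.746 nt. The single ends of HIST1H4J varied more, with 45.9% ± 26.8 of its reads at 51 nt in wild-type (0% of 6 reads in replicate 1) and 68.2% ± 12.7 in R749H cells, 15.4% ± 11.7 and 7.30% ± 6.91 at 45 nt, and 28.5% ± 15.3 and 21.9% ± 11.3 at 56 nt, all with overlapping libraries. In HIST1H3H, the share at 900 to 920 nt among reads at 800 to 830 and 900 to 920 nt was 90.9%, 90.0%, 82.1%, 89.4% and 90.7% in wild-type and 81.6%, 79.6%, 76.6% and 89.2% in R749H replicates. The difference of the means, R749H minus wild-type, was -6.86 points, and the libraries overlapped. These values are given as a description, with no test.

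The share of reads within 100 nt, which does not depend on the level, was also compared. Over all members it was 22.4%, 25.6%, 24.5%, 22.6% and 19.6% in wild-type and 17.1%, 24.4%, 23.3% and 27.8% in R749H replicates. The means were 22.9% ± 2.31 (SD, n = 5) and 23.2% ± 4.46 (SD, n = 4), and the R749H range enclosed the wild-type range. Over the reads of all genes the share was 40.8% ± 1.63 in wild-type and 46.5% ± 1.27 in R749H cells, and there the libraries did not overlap. The share of the members mainly weighs HIST1H1C, with 73.6% of the near reads, against HIST3H2A, with 81.2% of the distal reads. Without these 2 genes it was 39.3% ± 14.3 in wild-type and 25.9% ± 4.26 in R749H cells, with 63.3% in wild-type replicate 1, the library with the fewest reads, and overlapping ranges.

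**Figure D4:**
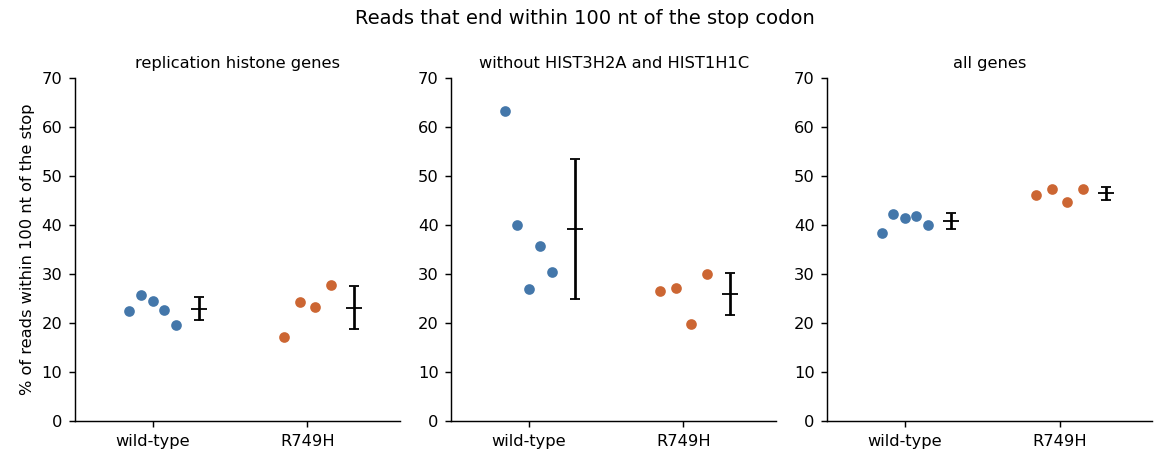
Percent of reads that end within 100 nt of the stop codon in each library (points) with mean ± SD (bars), for the 51 replication histone genes, for 49 of them without HIST3H2A and HIST1H1C, and for all genes. The histone values overlap between cell lines at 17.1% to 27.8%, and the values of all genes do not overlap.

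Gene by gene, the near share could be tested in 858 genes with reads in both windows. With limma on log2 odds, 0 genes had an adjusted p under 0.05 (0.0% in either direction), 79 had a higher and 38 a lower share at an unadjusted p under 0.05, and the variant of limma weighted by reads also gave 0 (69 and 49 unadjusted). HIST1H1C was the member with enough reads in both windows. Its share was at or above 94.3% in every library, and the log2 odds changed by 1.70 (SE 1.15, adjusted p = 0.52 by limma), a difference not detectable with 22 distal reads in all.

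The 3’ ends were then sorted by the stem-loop of each gene. Ends beyond 100 nt held 76.8% of the member reads, ends within 100 nt but more than 10 nt past the stem-loop 20.0%, ends 0 to 10 nt past the stem-loop 1.62%, ends before it 1.03% and ends within it 0.532%. The 0 to 10 nt class is where the untailed mRNA is normally cut. Its 167 reads came from 36 members and peaked at 2 nt past the stem-loop, with 56 reads, and 31 reads lay at 4 nt. HIST1H4J gave 25 of them (24 at its end 7 nt past the stem-loop), HIST1H2BK 17, HIST1H4K 13, and HIST1H4E and HIST2H2AC 12 each.

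By class, reads beyond 100 nt were at 107 ± 22.9 RPM (SD, n = 5) in wild-type and 252 ± 18.6 RPM (SD, n = 4) in R749H cells, a ratio of 2.34, and later reads within 100 nt at 25.4 ± 6.95 and 70.4 ± 22.9 RPM, a ratio of 2.77, each without overlap. Reads that ended 0 to 10 nt past the stem-loop were at 7.66, 5.66, 3.12, 2.37 and 2.45 RPM in wild-type and 1.24, 4.79, 4.40 and 4.12 RPM in R749H replicates. The means, 4.25 ± 2.33 (SD, n = 5) and 3.64 ± 1.62 RPM (SD, n = 4), differed by less than either SD. As a share of the member reads, this class made up 1.57% to 4.43% in wild-type and 0.457% to 1.39% in R749H libraries, which did not overlap. That share depends on HIST3H2A and HIST1H1C, which hold most member reads and rose. Without these 2 genes the share was 5.77% to 30% in wild-type and 2.06% to 7.66% in R749H libraries, which overlapped. Reads before the stem-loop, mostly of HIST2H2AC, were at 2.12 ± 1.28 and 1.75 ± 1.78 RPM, and the 55 reads within it at 0.631 ± 0.513 and 1.77 ± 0.737 RPM. The ratio of the 0 to 10 nt class was 0.856 with all libraries and 0.796 without R749H replicate 3, that of the reads before the stem-loop 0.824 and 1.10, and no test was made of these sums. H2AFX, the other gene with the stem-loop, showed the poly(A) pattern in full, with 4 of 31586 reads 0 to 10 nt past it and the most used end at 1086 nt. Its level was 621 ± 153 RPM in wild-type and 666 ± 122 RPM in R749H cells (log2 fold change 0.45, adjusted p = 0.16 by limma).

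**Figure D5:**
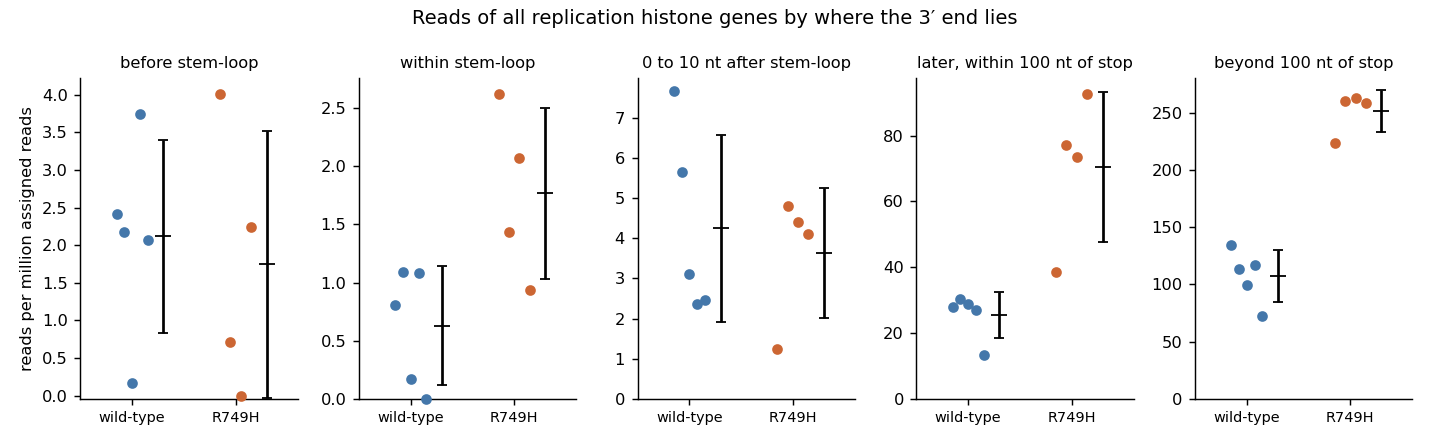
Summed level (RPM) of the replication histone genes in each library (points) with mean ± SD (bars), by where the 3’ end lies relative to the stem-loop and the stop codon. Linear axes differ between panels. The 2 classes on the right are higher in every R749H library, with means of 70.4 and 252 against 25.4 and 107 RPM, and the class 0 to 10 nt past the stem-loop overlaps.

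The genes around the histone clusters served for comparison. Within 1 Mb of the HIST1 clusters, 15 genes that are not members were tested, of which 1 rose and 2 fell, with a median log2 fold change of -0.34 by limma. Within 1 Mb of HIST3H2A, 4 of 15 rose and 4 fell (median 0.12), and around the HIST2 cluster 0 of 18 rose and 1 fell (median -0.01). The median over all genes tested was -0.06.

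The machinery of histone and poly(A) 3’ ends was examined as lists. Of 17 tested genes of stem-loop processing, 2 rose and 2 fell (limma, adjusted p under 0.05), with a median log2 fold change of -0.01. This list holds SLBP, the U7 snRNP proteins and the shared cleavage factors, and also NPAT, CASP8AP2, SRRT, NCBP1, NCBP2 and CDC73. CSTF2, the CstF subunit that binds RNA downstream of poly(A) sites and also acts in histone processing, rose by 1.05 (adjusted p = 0.0031), and SNRPB, an Sm protein, rose by 0.94 (adjusted p = 0.0015). LSM10, an Sm-like protein particular to the U7 snRNP, fell by 0.60 on the log2 scale (adjusted p = 0.017), and CPSF3, the endonuclease of both pathways, fell by 0.73 on the log2 scale (adjusted p = 0.033). The CPSF3 call was lost without wild-type replicate 4 (adjusted p = 0.053) or 5 (0.065) or R749H replicate 4 (0.15). SLBP itself, named here although it falls outside the rule for named genes, was at 18.8 ± 2.41 RPM (SD, n = 5) in wild-type and 18.7 ± 4.68 RPM (SD, n = 4) in R749H cells, a log2 fold change of 0.28 on the TMM scale (adjusted p = 0.40).

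Of 14 tested genes of general cleavage and polyadenylation, 3 rose and 1 fell (median log2 fold change 0.16). NUDT21, the CFI subunit that binds UGUA, rose by 1.21 (limma, adjusted p = 0.00061) and CSTF3 by 1.01 (adjusted p = 0.0026), and PABPN1, the nuclear poly(A) binding protein, fell by 0.76 on the log2 scale (adjusted p = 0.027). PABPN1 no longer passed without wild-type replicate 2 (adjusted p = 0.058) or 4 (0.056) or R749H replicate 2 (0.058) or 3 (0.12). Of 9 tested genes of histone mRNA translation and decay, 1 rose and 1 fell (median 0.19). LSM4 rose by 0.57 (adjusted p = 0.034) and EXOSC10, the nuclear exosome nuclease, fell by 0.66 on the log2 scale (adjusted p = 0.022). EXOSC10 did not pass without wild-type replicate 2 (adjusted p = 0.060) or 4 (0.059) or R749H replicate 3 (0.079) or 4 (0.080), and LSM4 did not pass without wild-type replicate 2 (0.073), 4 (0.099) or 5 (0.053), without R749H replicate 2 (0.070), 3 (0.050) or 4 (0.11), or with the authors' scaling alone (log2 fold change 0.23, adjusted p = 0.37).

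Genes of S phase and of cell cycle exit were examined in the same way. Of 22 tested S phase genes 5 rose and 1 fell, with a median log2 fold change of 0.26 by limma. PCNA, the replication clamp, rose by 1.38 (adjusted p = 0.013), though DESeq2 gave it an adjusted p of 0.069, and limma with the authors' scaling alone 0.054, and E2F1, a transcription factor of S phase genes, rose by 1.24 (adjusted p = 0.0020). MCM3, a subunit of the replicative helicase, fell by 0.53 on the log2 scale (adjusted p = 0.040), and the call was lost with 7 of the 9 libraries left out in turn (wild-type replicates 2 to 5 and R749H replicates 2 to 4), at an adjusted p of 0.052 to 0.14. In RPM the groups overlapped for PCNA (R749H 17.8 to 57.2, wild-type 7.54 to 44.4) and E2F1 (87.2 to 122 and 33.1 to 99.2). They did not overlap for MCM3. Of 13 tested genes of cell cycle exit 4 rose and 1 fell (median 0.37). The list also holds the D-type cyclins CCND1, CCND2 and CCND3, which are not genes of exit. CCND1, named here although it falls outside the rule for named genes, was 1 of the 4 (0.75, adjusted p = 0.035 by limma). CDKN1A, which encodes the CDK inhibitor p21, was at 105 ± 34.4 RPM (SD, n = 5) in wild-type and 375 ± 91.0 RPM (SD, n = 4) in R749H cells and rose by 2.16 (limma, adjusted p = 6.9e-06). BTG2, an antiproliferative gene, rose by 1.65 and BTG1, a related gene, fell by 1.32 on the log2 scale (limma, adjusted p = 7.6e-05 and 0.00019). The part of these genes' changes in the histone reads was not tested.

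Replacement histone genes, which are expressed outside S phase and make poly(A) mRNA (H2AFX among them also stem-loop mRNA), rose in 5 of 9 tested cases and fell in 0, with a median log2 fold change of 0.58. H3F3B rose by 1.57 and H1F0, the linker histone of nondividing cells, by 1.42 (limma, adjusted p = 1.3e-05 and 9.0e-05). The TMM factors, 0.812 to 0.972 in R749H and 1.04 to 1.26 in wild-type libraries, raise R749H values relative to RPM. In RPM the groups overlapped for H2AFZ (R749H 408 to 638, wild-type 323 to 603) and H1FX (2174 to 2929 and 1918 to 2450). They did not overlap for H3F3B, H2AFJ and H1F0, the other genes of the 5 that rose.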

How the data were processed

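Poly(A) 3’ ends were measured by 3’ READS in 9 libraries (5 wild-type, 4 R749H). The authors removed 4 random nt and leading Ts, truncated reads to 77 nt at most, mapped them with bowtie to hg19 (GRCh37) with no mismatch in the first 30 nt, and kept reads with non-templated As. The submitters' processing notes list Bowtie2 2.3.2. The authors assigned ends to a stop codon within 5 kb upstream. The deposited values are a signal, reads at each end scaled by the authors to 7000000 per library, and they divided back into whole reads (within 0.01 read). No molecular identifiers are named, so duplicates may remain. The columns pooled over replicates were not used.

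Reads were summed per gene and by distance from the stop codon (100 nt). limma 3.58.1 with an intensity trend (log2 RPM, TMM, prior count 2, filterByExpr of edgeR 4.0.16, R 4.3.3) compared the groups, with Benjamini-Hochberg adjustment over all genes or features at 0.05. Near shares were fitted as log2 odds with 0.5 reads added, in genes with a mean of at least 20 reads and 2 in each window. edgeR, DESeq2 1.42.0, other scaling, filters and windows, and leaving out each library served as alternatives. Named genes are the 8 members with the highest mean level, members past the threshold or in the near share fit, and up to 2 genes per list and direction past it. The members and lists were chosen with earlier results of these data known. Same-numbered replicates of the groups did not deviate together (Pearson's r from -0.087 to 0.054 across 7267 genes), so the numbers were not used as pairs. The eNETseq samples were not analysed here. Scripts were tested on simulated data.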

Additional observations from a re-analysis of the deposited data

Results flagged for a closer look

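HIST1H3H in R749H replicate 3 lay far from the other libraries of its group, at 23.6 RPM against 12.7 to 13.5 RPM, a gap of 0.929 of the group's range, past Dixon's 95% critical value for 4 libraries. Of 20 groups of values examined, chance alone is expected to single out about 1 in 20. R749H replicate 3 is the library with few distinct ends, and the part of this in the value was not tested. Without it HIST1H3H still rose, by 0.97 on the log2 scale (limma, adjusted p = 0.027).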

How the results depend on the processing

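Of the counts of members and the summed values, 105 of 109 recomputed values stayed on the same side and within the stated range, and 4 moved. Without the filter on low counts, 12 members rose in gene expression and 12 in the windows. With TMM factors the ratio of summed reads was 2.96, and without HIST3H2A and HIST1H1C the near share differed by -13.4 points (both chosen after seeing the data). With each library left out in turn, 7 to 8 members rose in expression and in windows, 0 fell and 0 shifted in near share, the ratio of summed reads was 2.16 to 2.50, and the near share of members differed by -1.34 to 2.23 points. HIST2H2AC, which did not pass in any setting where it was tested, changed sign to 0.016 with edgeR, 0.026 with DESeq2, 0.21 without R749H replicate 2 and 0.13 without R749H replicate 4 (-0.49 to 0.21 over the libraries left out), and the log2 odds of HIST1H1C to -1.004 with 50 nt. The cause was not tested. The 7 members called in expression passed in all 16 settings, with HIST1H3H closest to the threshold (limma, adjusted p = 0.048 with the authors' scaling alone). HIST1H3B, HIST2H2BE and HIST1H2AL entered the filtered settings through their R749H reads, so passing there is no independent support for them. With the replicate number as a block, 7 members rose in expression and 7 in windows, 0 fell and 0 shifted in near share. CPSF3 (adjusted p = 0.057), LSM4 (0.071) and MCM3 (0.080) did not pass under the block, which holds wild-type replicate 5 alone in its level, and MCM3 did not pass without the filter (0.054). No 3’ end was listed under more than 1 gene, so that alternative equals the values given. Without wild-type replicate 4 no member had enough reads for the near share fit. Depth limits the 43 untested members, and the 0 to 10 nt class rests on 167 reads.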
